A study of Sus scrofa with 6 samples.

Results

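The respiratory chain subunits encoded in the nucleus were followed in the livers of 3 IUGR and 3 normal pigs, named IUGR 1 to 3 and Normal 1 to 3 after the replicate numbers of the labels. IUGR (intrauterine growth restriction) pigs were born light for their litter, normal pigs had a usual birth weight, and all were PIC breeding pigs sampled at 150 days of age after living in the same environment. The methods describe the animals as males, with 1 IUGR and 1 control piglet taken from each litter, but the labels do not say which libraries share a litter. The table gave FPKM (fragments normalised for the length of the transcript and the size of the library) for 121055 assembled loci, 22571 of them with an Ensembl gene identifier. Members were the genes whose symbol in the table is that of a subunit of complexes I to V (symbols beginning NDUFA, NDUFB, NDUFC, NDUFS, NDUFV, SDH, UQCR, COX4 to COX8 or ATP5). This gave 68 rows and 65 genes after keeping the row with the highest mean FPKM of each symbol. Of the 65 genes, 30 belong to complex I, 4 to complex II, 4 to complex III, 14 to complex IV and 13 to complex V, and 62 passed the filter of a mean FPKM of at least 0.3. The symbols also took in COX7A2L, which helps to assemble supercomplexes, and ATP5S, a factor linked to ATP synthase, which are not subunits proper and are counted with complexes IV and V.

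The respiratory chain is built in the inner mitochondrial membrane. Complexes I and II pass electrons from NADH and succinate to ubiquinone, complex III passes them to cytochrome c, complex IV passes them to oxygen, and complex V (ATP synthase) uses the proton gradient that the others build to make ATP. Mitochondrial DNA encodes a few of the catalytic subunits and the nucleus encodes all the others, so each complex but complex II is assembled from both genomes. Some nuclear subunits of complex IV come as a liver-type isoform, found in most tissues, and a heart and muscle isoform, and the proton-carrying c subunit of ATP synthase is encoded by several genes whose mature protein is the same. The liver is rich in mitochondria, which it uses to oxidise fatty acids and to power gluconeogenesis and urea synthesis.

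The libraries were not alike before any gene group was considered. IUGR 2, IUGR 3 and Normal 1 had the higher shares of mapped reads in the study's alignment table, and IUGR 1, Normal 2 and Normal 3 had the lower shares. These are here called the higher and the lower mapped libraries. The median log2(FPKM + 1) of the 14727 tested loci was 2.54, 2.77 and 2.61 in IUGR 1, 2 and 3, against 2.79, 2.40 and 2.27 in Normal 1, 2 and 3. IUGR 2 and IUGR 3 were closer to each other than any other pair of libraries, so results are also given with these libraries averaged where that changes them. The hepatocyte genes TTR and APOA1 were high in every library, at 6129 to 11875 FPKM for TTR and 1721 to 4119 FPKM for APOA1, and SERPINA1, FGB and CPS1 lay between 227 and 2596 FPKM. ALB was listed at 0 in every library with a failed estimate, and TF, also with failed estimates, was listed at 0 in IUGR 2, IUGR 3 and Normal 1 and at 4780 to 7906 FPKM in the other libraries. All 65 members had an estimate status of OK in every library. No read counts came with the FPKM, and the depth of a single value is unknown.

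No subunit passed the threshold between IUGR and normal livers. With limma on log2(FPKM + 1) and adjustment over all 14727 tested loci, 0 of 62 members were called higher and 0 lower at an adjusted p under 0.05, where the background of all tested loci was 0.00679% higher and 0.0136% lower. At an unadjusted p under 0.05, 1 member was higher (COX4I1), against 6.0% of all tested loci, and 0 were lower, against 0.794%. In no member did the 3 IUGR libraries lie wholly apart from the 3 normal ones, whereas 8.39% of all tested loci had all IUGR libraries above and 1.22% all IUGR libraries below. The smallest adjusted p of a member was 0.579, and the next was 0.768. The 95% interval of the log2 fold change reached a median of 0.72 to either side of the estimate, so that differences of this size could not be told from 0 for most subunits.

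Every point estimate was nevertheless above 0. The log2 fold change, IUGR minus Normal, was positive for 62 of 62 members, against 79.2% of all tested loci, and its median was 0.32 over members and 0.15 over all tested loci. Over the 4848 loci averaging at least 10 FPKM (a comparison chosen after seeing the data), the share above 0 was 84.5% and the median 0.20. This set has a floor only and is not matched to the members in level. After subtraction of the median of all tested loci the members' median was 0.17, and 54 of 62 members stayed above it. Both values changed with single libraries. The members' own median was 0.63 without Normal 1 and 0.50 without IUGR 1, but 0.19 without IUGR 2, 0.19 without Normal 2 and 0.14 without Normal 3. The median relative to all tested loci was 0.32 without Normal 1 and 0.29 without IUGR 1, but 0.092 without IUGR 2, 0.080 without Normal 2 and 0.087 without Normal 3. Scaling all libraries to the same median of tested loci left 54 of 62 above 0. That scaling moves every fold change by the same amount, much as the subtraction above does, and so adds little to it. Quantile scaling left 47 above 0, and scaling to the same sum 41. Under these scalings the tested loci were more evenly split at an unadjusted p under 0.05. With the same median 4 members were higher and 0 lower, against 5.0% and 3.43% of all tested loci. Quantile scaling gave 8 higher and 0 lower, against 5.47% and 4.43%, and the same sum gave 5 higher and 1 lower, against 3.75% and 5.59%. In bulk liver a lower level cannot be divided into fewer cells of a type and less RNA per cell.

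**Figure D1:**
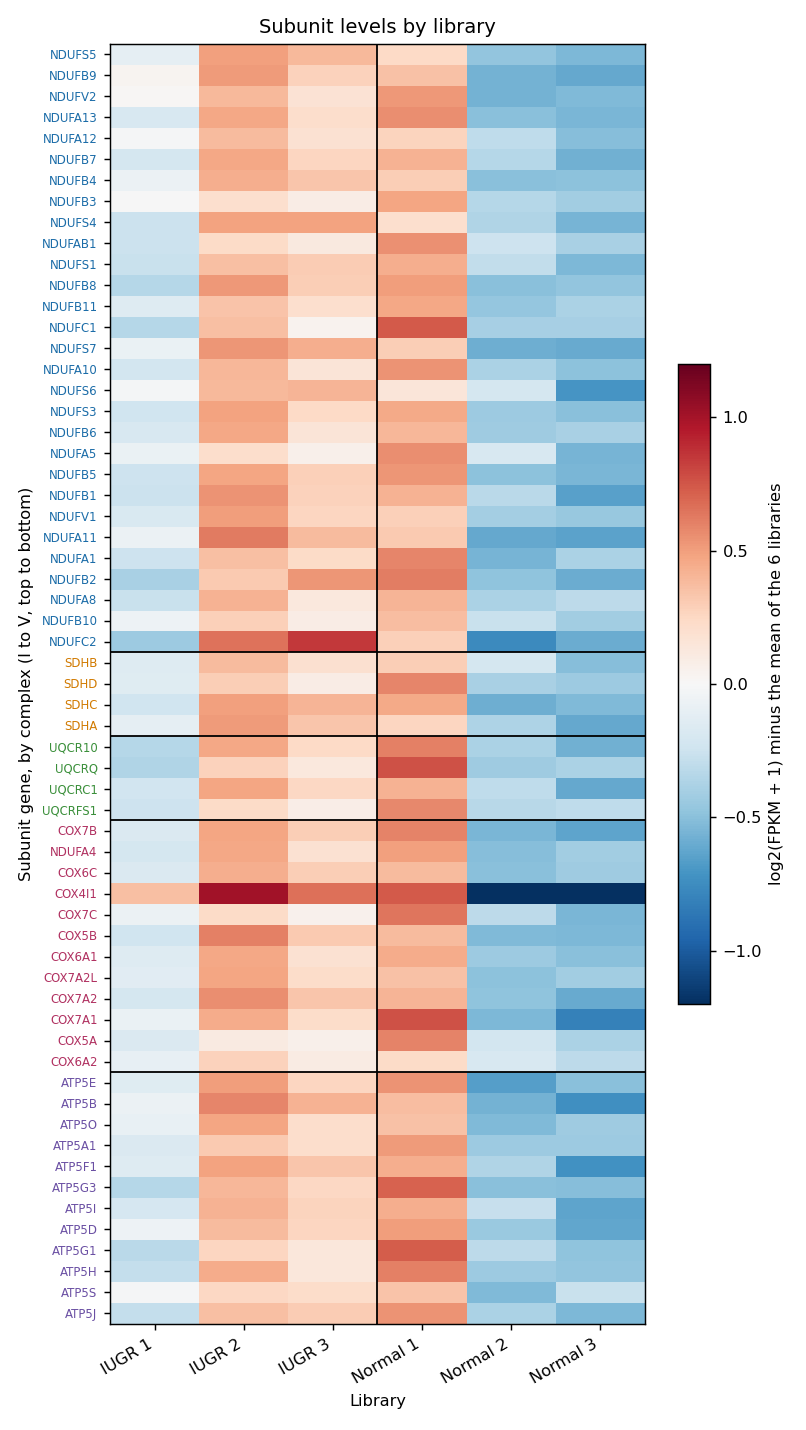
Level of 61 of the 62 tested subunits by library, as log2(FPKM + 1) minus the mean of the 6 libraries (red above, blue below), with IUGR libraries left and normal libraries right and the complexes separated by black lines (I to V from top to bottom, label colours by complex). IUGR 2, IUGR 3 and Normal 1 are red and Normal 2 and Normal 3 blue in every row, and COX4I1 is the row with the widest contrast and the one in which IUGR 1 is also clearly red.

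The subunits moved together from library to library, and the split ran across the groups. The median FPKM of the 62 members was 49.8 in IUGR 1, 70.7 in IUGR 2 and 66.5 in IUGR 3, against 76.4 in Normal 1, 42.3 in Normal 2 and 36.7 in Normal 3. All 62 members were higher in each of the 3 higher mapped libraries than in each of the 3 lower mapped ones, which held for 44.3% of all tested loci and for 64.9% of those averaging at least 10 FPKM. Normal 1 held the highest level of 32 members and IUGR 2 that of 28, while Normal 3 held the lowest level of 43 and Normal 2 that of 19. As a share of the FPKM summed over all known loci, the members made up 0.958%, 1.13% and 1.11% in IUGR 1, 2 and 3, against 1.11%, 0.974% and 0.916% in Normal 1, 2 and 3. The order of the libraries by this share again followed the mapped class and not the group.

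Between higher and lower mapped libraries the median log2 difference, adjusted for group, was 0.72 over the members, against 0.30 over all tested loci and 0.47 over those averaging at least 10 FPKM. In this fit 62 of 62 members had an unadjusted p under 0.05, where the background was 32.1%, and 1 (NDUFC2) was called at an adjusted p under 0.05 in limma, where the background was 0.407%. The mapped classes were chosen with earlier results of these data known. The counts therefore describe the split and are not an independent test of it. With the mapped class as a second factor the IUGR minus Normal median fell to 0.080 over the members and 0.055 over all tested loci, and 45 of 62 members stayed above 0. Within the higher mapped libraries, IUGR 2 and IUGR 3 against Normal 1, the median was -0.11 and 16 of 62 members were above 0. Within the lower mapped libraries, IUGR 1 against Normal 2 and Normal 3, the median was 0.27 and 62 of 62 were above 0. The direction of the group difference was thus not the same in both sets of libraries, and each set has only 1 library on one side, so no test is given within it. Whether the mapped share itself has a part in the levels was not tested.

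**Figure D2:**
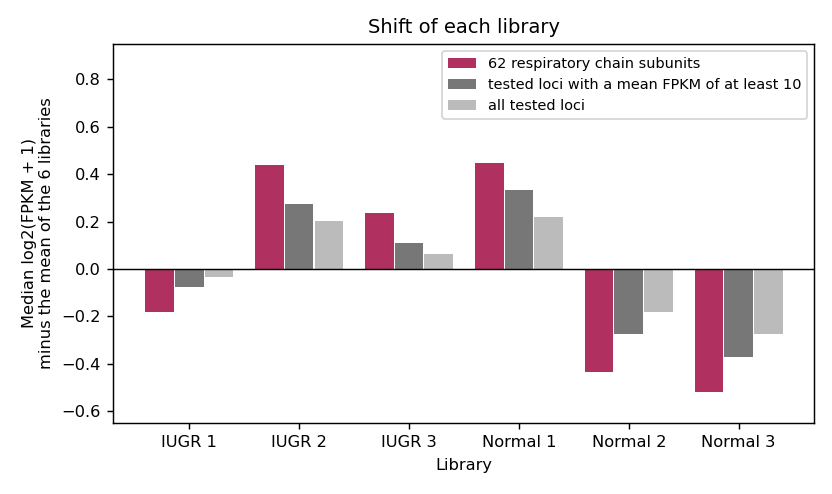
Median shift of each library, as log2(FPKM + 1) minus the mean of the 6 libraries, over the 62 subunits (red), over tested loci averaging at least 10 FPKM (dark grey) and over all tested loci (light grey). The subunits shifted in the same direction as the other loci in every library and by more, from -0.52 in Normal 3 to 0.45 in Normal 1.

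Complex I, the NADH dehydrogenase, was measured through 6 core and 24 accessory subunits with a median level of 32.6 FPKM. Its 30 subunits had log2 fold changes between 0.044 and 0.71, with a median of 0.32, and none had an unadjusted p under 0.05. The most abundant was NDUFS5, an accessory subunit, at 104, 157 and 146 FPKM in IUGR livers against 132, 79.9 and 76.5 FPKM in normal livers. The 6 core subunits ranged in mean level from 22.9 FPKM for NDUFV1 to 92.2 FPKM for NDUFV2. NDUFS1, the large iron-sulfur subunit of the NADH-oxidising arm, had 37.1, 57.9 and 55.8 FPKM in IUGR livers against 61.1, 36.3 and 30.5 FPKM in normal livers, a log2 fold change of 0.27 with a standard error (SE) of 0.32. For NDUFV1, which holds the flavin that accepts electrons from NADH, the levels were 19.3, 31.8 and 26.7 FPKM in IUGR livers against 27.1, 16.5 and 15.8 FPKM in normal livers (0.39, SE 0.29). In these genes Normal 1 lay among the IUGR libraries or above them, so the groups overlapped.

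The 4 complex I subunits of lowest p lay in both arms. NDUFC2, an accessory subunit of the membrane arm at chromosome 9, 13821217 to 13827297 (Sscrofa10.2), was the scarcest of the complex and had 2.21, 5.83 and 6.81 FPKM in IUGR livers against 4.30, 1.56 and 1.87 FPKM in normal livers. Its log2 fold change was 0.71 (SE 0.35, adjusted p 0.768 in limma). IUGR 1 stood below Normal 1, and the fold between its highest and lowest library was 4.36, the widest of all members but COX4I1. NDUFA11, a membrane-arm subunit, followed at 0.62 (SE 0.32), NDUFS7, a core iron-sulfur subunit, at 0.60 (SE 0.32) and NDUFS6, a zinc-binding accessory subunit, at 0.52 (SE 0.29), with adjusted p values of 0.778, 0.802 and 0.825 in limma. Near the other end was NDUFAB1, the acyl carrier protein that also serves mitochondrial fatty acid synthesis. It had 42.5, 59.8 and 55.2 FPKM in IUGR livers against 74.7, 42.6 and 38.7 FPKM in normal livers, a log2 fold change of 0.061 (SE 0.32) whose sign turned under each scaling and with the mapped class as a factor.

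Complex II, the succinate dehydrogenase, is the one complex with no mitochondrially encoded part, and all 4 subunits were measured. The flavoprotein SDHA, which oxidises succinate, had 45.6, 70.8 and 62.4 FPKM in IUGR livers against 59.0, 37.8 and 31.9 FPKM in normal livers (log2 fold change 0.49, SE 0.31, adjusted p 0.861 in limma). The iron-sulfur subunit SDHB was the most abundant, at 117, 170 and 149 FPKM in IUGR livers against 160, 112 and 91.1 FPKM in normal livers (0.28, SE 0.33). The membrane anchors SDHC and SDHD gave 0.44 (SE 0.36) and 0.16 (SE 0.35), and the estimate of SDHD turned negative under quantile scaling, sum scaling and a fit with the mapped class. SDHA was thus present at less than the level of its partner SDHB in every library. The ratio of SDHA to SDHB was 0.391, 0.417 and 0.420 in IUGR livers against 0.369, 0.338 and 0.350 in normal livers, so that here the groups did not overlap. This ratio was singled out after its values were seen, and over all 579 pairs of tested subunits of the same complex such ratios did not overlap in 26.3%.

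Complex III, the cytochrome bc1 complex, was represented by 4 nuclear subunits. Their median log2 fold change, 0.14, was the smallest of any complex and was -0.016 relative to all tested loci. UQCRC2 and UQCR11, which the symbol rule did not reach, are left out of this median. They lay above it, at 0.37 (SE 0.34) and 0.40 (SE 0.39). CYC1, UQCRB and UQCRH were not matched to a locus and are also left out of the median. UQCR10, a small subunit, was the most abundant at 116, 204 and 175 FPKM in IUGR livers against 225, 113 and 98.8 FPKM in normal livers (0.24, SE 0.38). UQCRFS1, the Rieske iron-sulfur protein that carries electrons towards cytochrome c, was the scarcest at 27.3, 38.6 and 34.5 FPKM in IUGR livers against 49.3, 25.8 and 26.2 FPKM in normal livers (0.038, SE 0.31). UQCRC1, a core protein of the matrix side, gave 0.33 (SE 0.34). In these genes Normal 1 was at or near the top and Normal 2 and Normal 3 were at the bottom, with the IUGR libraries between or beside them. The signs for UQCRFS1 and UQCR10 turned under sum and quantile scaling, and that for UQCRFS1 also under median scaling.

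Complex IV, cytochrome c oxidase, contained the most abundant subunits, with a median level of 132 FPKM. COX7B, a small subunit, led all members at 464, 730 and 644 FPKM in IUGR livers against 792, 357 and 338 FPKM in normal livers (0.40, SE 0.42). NDUFA4, long counted with complex I and now placed with complex IV, followed at 289, 462 and 378 FPKM in IUGR livers against 469, 234 and 250 FPKM in normal livers. The log2 fold change of NDUFA4 was 0.29 (SE 0.38) and turned negative under quantile scaling. COX5B, a zinc-binding subunit, gave 0.46 (SE 0.36). COX5A, which joins COX4I1 early in the assembly of the complex, had the flattest estimate of all members. Its levels were 39.7, 48.4 and 46.8 FPKM in IUGR livers against 68.2, 38.4 and 34.2 FPKM in normal livers, a log2 fold change of 0.00091 (SE 0.31) that was negative under all 3 scalings.

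COX4I1, the broadly expressed form of the largest nuclear subunit of complex IV, stood apart from the other 61 members. At chromosome 6, 3453458 to 3459912 (Sscrofa10.2), it had 147, 231 and 183 FPKM in IUGR livers against 192, 42.8 and 44.0 FPKM in normal livers. The IUGR libraries were all high, and of the normal libraries Normal 1 was as high as they were while Normal 2 and Normal 3 were far below. The log2 fold change was 1.35 (SE 0.50, 95% interval 0.27 to 2.43), with an unadjusted p of 0.0179 and an adjusted p of 0.579 in limma, so it was not called. The next largest member estimate was 0.71. The fold between its highest and lowest library was 5.41, against a median of 2.14 over members and 1.96 over all tested loci. Without Normal 1 the log2 fold change was 2.06 with an adjusted p of 0.0312 in limma, where the background was 0.129% of loci called higher, but in that fit 50 of 62 members reached an unadjusted p under 0.05, against 28.4% of all tested loci. Apart from comparisons within a mapped class, over all alternatives tried its estimate lay between 0.92 and 2.06. Its adjusted p in those fits lay between 0.0312 and 1.0 in limma. Within the higher mapped libraries alone its log2 difference was 0.095.

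Because the other subunits carried the shift of each library, COX4I1 was also set against them within each library. This measure was chosen after its values were seen and is a description with no test. The ratio of COX4I1 to the median of the other 11 tested members of complex IV was 1.37, 1.46 and 1.31 in IUGR livers against 1.16, 0.489 and 0.505 in normal livers. Relative to COX5A the ratio was 3.71, 4.78 and 3.90 in IUGR livers against 2.82, 1.11 and 1.29 in normal livers. Both ratios were higher in each IUGR library than in any normal library. The margin was smaller over Normal 1 than over Normal 2 and Normal 3. Ratios that did not overlap between groups, 26.3% of all pairs within a complex, were 9 of the 11 pairs with COX4I1 and 7 of the 55 other pairs of complex IV, where pairs share genes and are not independent. Within the lower mapped libraries, where IUGR 1 stands against Normal 2 and Normal 3, the log2 difference of COX4I1 was 1.74, and that of the other 61 members lay between 0.041 and 0.62. Within the higher mapped libraries it was 0.095. EMC8, an endoplasmic reticulum membrane protein gene whose locus begins just past that of COX4I1, had 6.58, 8.92 and 7.80 FPKM in IUGR livers against 7.76, 5.87 and 5.998 FPKM in normal livers (0.22, SE 0.23, adjusted p 0.894 in limma), so the drop in Normal 2 and Normal 3 was much smaller there.

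**Figure D3:**
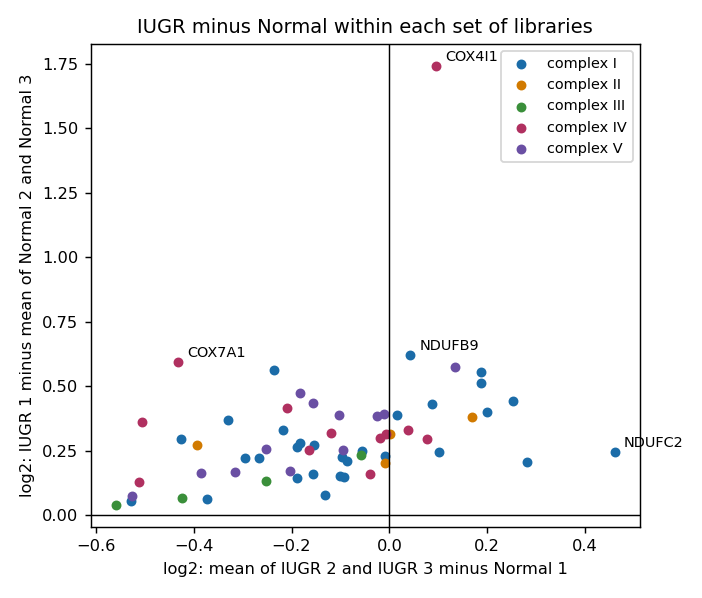
IUGR minus Normal on the log2(FPKM + 1) scale for each of the 62 subunits, within the lower mapped libraries (vertical axis, IUGR 1 against the mean of Normal 2 and Normal 3) and within the higher mapped libraries (horizontal axis, mean of IUGR 2 and IUGR 3 against Normal 1), coloured by complex. COX4I1 lies alone at 1.74 on the vertical axis, where the other members lie between 0.041 and 0.62.

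The isoform pairs were compared as ratios within a library, which are free of a shift shared by both genes. The labelled pair COX4I1 and COX4I2 could not be formed, since COX4I2 was not matched to a locus and was not analysed here. In all, 5 pairs were measured and tested by an exact two-sided permutation test over the 6 libraries, in which 3 against 3 cannot give a p below 0.1. COX7A1, the heart and muscle form of a small complex IV subunit, lies at chromosome 6, 40921405 to 40922901, and had 58.1, 84.5 and 71.9 FPKM in IUGR livers against 105, 42.0 and 34.7 FPKM in normal livers. COX7A2, the liver form, had 63.0, 108 and 92.4 FPKM in IUGR livers against 97.2, 52.2 and 47.7 FPKM in normal livers. As listed, the muscle form was close to the liver form in level in these livers. The COX7A2 locus spans 196929 bases, against 1497 for that of COX7A1, and can take in a neighbouring gene. How much of its level belongs to COX7A2 alone was not tested. COX7A1 made up 45.2 ± 2.39% of the sum of both loci in IUGR livers and 46.2 ± 5.18% in normal livers (SD, n = 3 each). The log2 ratio differed by -0.061 (exact permutation p = 0.8, adjusted over 5 pairs 1.0), and the sign turned without Normal 1, at 0.10.

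COX6A2, another muscle-type isoform of complex IV, was by contrast minor. It had 4.16, 5.66 and 4.89 FPKM in IUGR livers against 5.44, 3.81 and 3.44 FPKM in normal livers. Its liver-type counterpart COX6A1 had 114, 175 and 144 FPKM in IUGR livers against 172, 92.9 and 89.1 FPKM in normal livers. COX6A2 made up 3.32 ± 0.196% of the pair in IUGR livers and 3.57 ± 0.456% in normal livers (SD, n = 3 each), and the log2 ratio differed by -0.14 (exact permutation p = 0.4, adjusted 1.0). Striated muscle markers were near 0 beside these values. The 6 of 9 found summed to 0.410, 0.654 and 0.430 FPKM in IUGR livers against 0.328, 0.415 and 0.257 FPKM in normal livers, and the muscle creatine kinase CKM reached at most 0.018 FPKM. Smooth muscle and pericyte markers were present, and the 9 of 10 found summed to 91.5, 83.6 and 65.7 FPKM in IUGR livers against 76.6, 38.7 and 42.1 FPKM in normal livers, with 5 of 9 higher at an unadjusted p under 0.05, against 6.0% of all tested loci, and 0 called. Of the 4 endothelial markers found, 2 were higher at that p and 0 were called, with sums of 122, 140 and 113 FPKM in IUGR livers against 124, 61.5 and 83.1 FPKM in normal livers. The part of these cells in the COX7A1 level was not tested.

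ATP5G1 and ATP5G3 encode the same mature c subunit, which forms the rotating ring of ATP synthase. ATP5G2, a further gene meant for this comparison, was not matched to a locus, so shares are of ATP5G1 and ATP5G3 only. ATP5G1 had 34.0, 51.6 and 47.3 FPKM in IUGR livers against 71.5, 34.2 and 30.3 FPKM in normal livers. ATP5G3 had 68.5, 115 and 104 FPKM in IUGR livers against 143, 61.1 and 60.9 FPKM in normal livers. ATP5G1 supplied 31.8 ± 1.17% of the pair in IUGR livers and 34.2 ± 1.504% in normal livers (SD, n = 3 each). The log2 ratio differed by -0.15, with the smallest p this design allows (exact permutation p = 0.1, adjusted 0.5). All 3 IUGR libraries lay below all 3 normal ones, although the share was 33.2% in both IUGR 1 and Normal 3 after rounding. Ratios did not overlap in 26.3% of all 579 pairs within a complex. The remaining pairs had a minor form at or near 0. COX8C, a form known from testis in human, was listed at 0, 0.798 and 0.570 FPKM in IUGR livers and 0, 0 and 0.119 FPKM in normal livers, beside 120 to 253 FPKM of COX8A, and NDUFA4L2 lay between 0.026 and 0.074 FPKM beside NDUFA4. Their log2 ratios differed by 0.013 and -0.28 (exact permutation p = 1.0 and 0.6, adjusted 1.0 for both). For such low genes the pseudocount sets the ratio, and that of COX8C to COX8A differed by 1.16 with a pseudocount of 0.1 and by 2.40 with 0.01. COX8H reached 0.179 FPKM in IUGR 2 and was listed at 0 in the other 5 libraries.

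**Figure D4:**
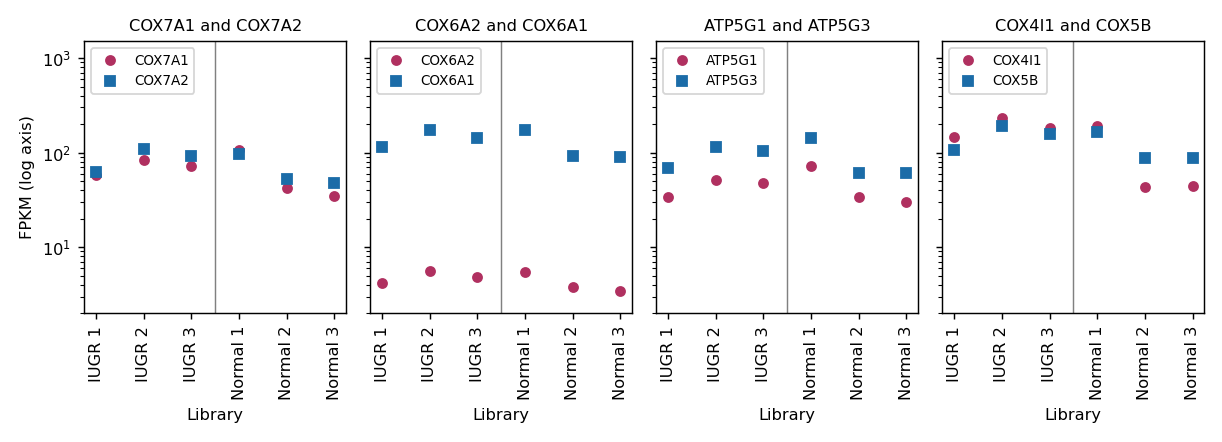
FPKM (log axis) in each library, IUGR left of the grey line and Normal right of it, for 3 isoform pairs and for COX4I1 beside COX5B, another subunit of the same complex. COX7A1 tracks the long COX7A2 locus at a similar level, and COX6A2 stays at 3.44 to 5.66 FPKM under COX6A1. COX4I1 falls below COX5B in Normal 2 and Normal 3 only.

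For COX7A1 the loci with the most similar profile over the 6 libraries, by Pearson's r of log2(FPKM + 1), were CIAPIN1 (0.999), ZNF576 (0.999) and RNF103 (0.998). These r values describe 6 libraries that share the overall shift, and 1475 of the 10364 loci compared had an r over 0.95. The profile of COX7A1 was thus one held by many loci.

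Complex V, the ATP synthase, had a median level of 78.4 FPKM and a median log2 fold change of 0.31. ATP5E, the small epsilon subunit of the rotor stalk, was the most abundant at 298, 466 and 392 FPKM in IUGR livers against 477, 208 and 232 FPKM in normal livers (0.41, SE 0.39). The catalytic beta subunit ATP5B, at chromosome 5, 23659084 to 23666696, had 206, 326 and 289 FPKM in IUGR livers against 280, 146 and 130 FPKM in normal livers (0.62, SE 0.38, adjusted p 0.842 in limma). The alpha subunit ATP5A1, which alternates with beta in the catalytic head, had 187, 264 and 245 FPKM in IUGR livers against 303, 156 and 157 FPKM in normal livers (0.23, SE 0.36), and its sign turned under sum and quantile scaling. The ratio of ATP5B to ATP5A1 was 1.10, 1.24 and 1.18 in IUGR livers against 0.924, 0.937 and 0.831 in normal livers, again without overlap. It was singled out after its values were seen. Such ratios did not overlap in 26.3% of all 579 pairs within a complex. They did not overlap in 7 of the 11 pairs of ATP5B with other members of complex V. Beta was more abundant than alpha in each IUGR library and alpha more abundant in each normal library. At the low end ATP5J, coupling factor 6 of the peripheral stalk, had 1.47, 2.88 and 2.74 FPKM in IUGR livers against 3.38, 1.32 and 1.08 FPKM in normal livers. That locus lies on the unplaced scaffold JH118804.1, and a further ATP5J locus on chromosome 13 had 0.546 to 0.912 FPKM. How the level of the gene divides between these loci was not tested. ATP5J2 was listed at 0 in every library at each of its 2 loci.

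**Figure D5:**
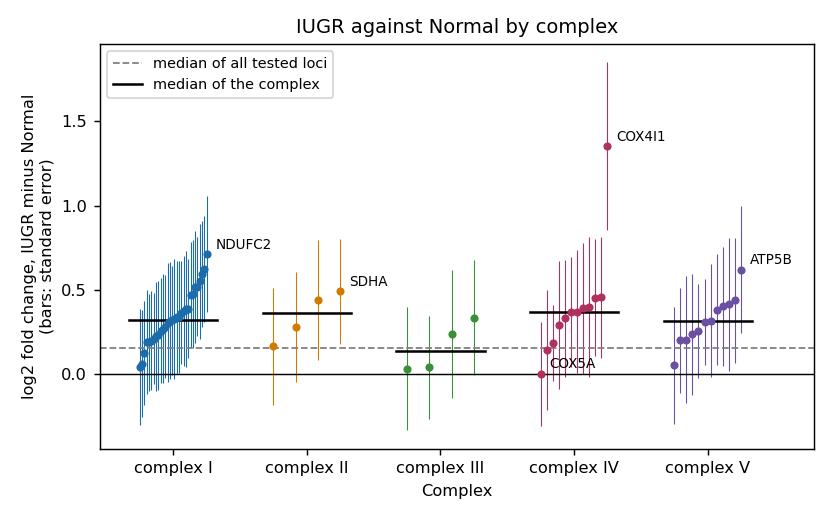
Log2 fold change, IUGR minus Normal, of the 62 subunits by complex, each point with its standard error, the median of each complex as a black line and the median of all tested loci (0.15) as a dashed line. All points are above 0, COX4I1 is at 1.35, and complex III, drawn without UQCRC2 and UQCR11, is the complex whose median lies under the dashed line.

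Across complexes the medians of the log2 fold change over members lay close together, at 0.32, 0.36, 0.14, 0.37 and 0.31 for complexes I to V. That of complex III leaves out UQCRC2 and UQCR11, which gave 0.37 and 0.40, and CYC1, UQCRB and UQCRH, which were not matched to a locus. Relative to all tested loci the medians were 0.17, 0.21, -0.016, 0.22 and 0.16. These moved when a library was left out. Without Normal 1 they were 0.32, 0.32, 0.21, 0.34 and 0.31, and without IUGR 1 they were 0.30, 0.34, 0.14, 0.32 and 0.27, so that complex III was then above 0. Without Normal 2 they were 0.072, 0.15, -0.11, 0.11 and 0.050, without Normal 3 they were 0.087, 0.14, -0.11, 0.11 and 0.065, and without IUGR 2 they were 0.088, 0.14, -0.095, 0.14 and 0.13. With no filter on low values complex III was at 0.043. No test was made between complexes, since subunits of a complex are not replicates of a condition.

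The genes that serve the chain from outside behaved as follows. Of the assembly factors, which build the complexes, 38 of the 49 listed were tested and 0 were called, with 31 estimates above 0 and a median of 0.12, which was -0.035 relative to all tested loci. SDHAF1, needed for the iron-sulfur subunit of complex II, gave 0.40 (SE 0.26), ATPAF2, an ATP synthase assembly factor, 0.41 (SE 0.30) and NDUFAF6, a complex I assembly factor, -0.12 (SE 0.14). Among 18 tested genes of coenzyme Q synthesis and electron carriers 0 were called and the median was also 0.12. ETFDH, which feeds electrons from fatty acid oxidation to ubiquinone, had 63.5, 100 and 88.3 FPKM in IUGR livers against 78.6, 51.1 and 50.3 FPKM in normal livers (0.48, SE 0.31). COQ8A, a kinase-like protein of coenzyme Q synthesis, had 26.2, 33.3 and 27.5 FPKM in IUGR livers against 24.8, 21.1 and 17.4 FPKM in normal livers (0.45, SE 0.26, adjusted p 0.835 in limma). Its IUGR libraries all lay above its normal ones, as in 8.39% of all tested loci. HCCS, which attaches heme to cytochrome c, gave -0.40 (SE 0.24).

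Regulators of mitochondrial biogenesis did not move as one. Of 14 tested, 0 were called, 10 estimates were above 0 and the median was 0.12. The coactivator PPARGC1A had 3.90, 4.51 and 4.66 FPKM in IUGR livers against 8.47, 4.85 and 5.82 FPKM in normal livers. All 3 IUGR libraries were below all 3 normal ones, as in 1.22% of all tested loci. The log2 fold change was -0.43 (SE 0.24, adjusted p 0.811 in limma) and was negative under every alternative tried. It lay from -0.66 to -0.24 apart from comparisons within a mapped class. Those gave -0.76 within the higher mapped libraries and -0.36 within the lower mapped ones. TFAM, which packages mitochondrial DNA and helps to start its transcription, had 23.4, 34.8 and 37.0 FPKM in IUGR livers against 28.0, 24.7 and 17.5 FPKM in normal livers (0.42, SE 0.29). NRF1, a transcription factor known to act on many respiratory chain promoters, had 1.44, 1.52 and 1.58 FPKM in IUGR livers against 1.67, 1.16 and 1.21 FPKM in normal livers (0.11, SE 0.17), and its sign turned under each scaling. NFE2L2, an antioxidant regulator, gave 0.42 (SE 0.29). The 10 loci of mitochondrially encoded subunits had a median of 0.19 with 9 above 0 and 0 called, and COX1, the catalytic subunit of complex IV, had 13107, 15742 and 15345 FPKM in IUGR livers against 19216, 9155 and 9614 FPKM in normal livers (0.30, SE 0.51). The 8 tested subunits that the symbol rule did not reach, 6 of which were found by gene identifier, had a median of 0.40 with all 8 above 0 and 0 called, and COX8A among them gave 0.43 (SE 0.36).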

How the data were processed

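Liver RNA of 3 IUGR and 3 normal pigs was sequenced on an Illumina HiSeq instrument. Per the labels, the authors used TopHat2 2.0.14 with Bowtie2 2.0.6, Cufflinks 2.2.1, Cuffdiff 2.1.1 and edgeR 3.2, with build Sscrofa10.2, while the results text of the study names another build. The authors deposited FPKM per assembled locus and no read counts, so edgeR was not run. Depth behind single values is unknown, so no counting error is given.

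FPKM was analysed as log2(FPKM + 1), unscaled, over the 14727 loci with an Ensembl identifier and a mean FPKM of at least 0.3, with limma 3.58.1 in R 4.3.3 (lmFit, eBayes with a trend, two-sided) and Benjamini-Hochberg adjustment at 0.05. A fold change on this scale understates that of low loci. The model was run on simulated data in which each locus varied on its own. That check did not cover the shift that loci share within a library. The members, gene lists and mapped classes were chosen with earlier results of these data known. Of 85 subunit symbols, 20 had no row of their own, and 6 of these were reached by gene identifier. Named genes are both genes of each isoform pair, the highest and lowest member of each complex, core subunits, the 5 members of lowest p, up to 3 genes of each other list, and 3 regulators. One member, counted with the others, is not reported here by name. EMC8, CKM and the pair ratios were added after their values were seen. Replicates are named from the labels, which do not say that equal numbers share a litter, so p-values measure the spread between these libraries. Alternatives changed the pseudocount (0.1, 0.01), filter, loci, scaling, variance model, mapped class, replicate block, thresholds and libraries. Python 3.11.15, pandas 2.3.3, numpy 2.4.6, scipy 1.17.1 and matplotlib 3.10.9 were used. Locus spans are those of assembled bundles and can take in a neighbouring gene.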

Additional observations from a re-analysis of the deposited data

How the results depend on the processing

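With 3 pigs a group and no counts, an exact test of a single ratio cannot pass 0.05, and median intervals reach 0.72 to either side. No member was called under any alternative over all 6 libraries, nor at an adjusted p of 0.01 together with a 2-unit log2 change. Without Normal replicate 1 the count called higher was 1, and leaving out each library in turn gave 0 to 1 called higher and 0 called lower. COX4I1 lay between 0.99 and 2.06 when libraries were left out. All tested loci higher and lower at an unadjusted p under 0.05 numbered 883 and 117, against 736 and 505 with median scaling, 552 and 823 with sum scaling and 806 and 652 with quantile scaling. The members' median was 0.17, 0.061 and 0.088 under these scalings, in that order.

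Equal replicate numbers did not stand out as pairs. Their correlations were -0.223, -0.0724 and -0.167, and no IUGR library correlated best with its own number. These correlations carry the shift that loci share within a library, so they cannot show whether equal numbers share a litter. With the replicate block 0 members were called, COX4I1 had an adjusted p of 0.256 in limma, and the calls over all tested loci were 166 higher and 79 lower, against 1 and 2 without it.

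Of the 62 members, 54 stayed above 0 under median scaling, 41 under sum scaling, 47 under quantile scaling and 45 with the mapped class as a factor. Among the genes named in the text, signs turned as follows, in log2 units. Median scaling gave ATP5G1 -0.10, NDUFAB1 -0.091, UQCRFS1 -0.11, COX5A -0.15 and NRF1 -0.047. Sum scaling gave COX6A2 -0.036, ATP5G1 -0.22, ATP5G3 -0.068, NDUFAB1 -0.21, SDHD -0.11, UQCRFS1 -0.23, COX5A -0.27, ATP5A1 -0.039, UQCR10 -0.035 and NRF1 -0.051. Quantile scaling gave ATP5G1 -0.16, ATP5G3 -0.047, NDUFA4 -0.049, NDUFAB1 -0.13, SDHD -0.10, UQCRFS1 -0.16, COX5A -0.19, ATP5A1 -0.080, UQCR10 -0.053 and NRF1 -0.036. The mapped class as a factor gave ATP5G1 -0.22, ATP5G3 -0.11, NDUFAB1 -0.15, SDHD -0.061, UQCRFS1 -0.18, COX5A -0.19, UQCR10 -0.059 and ATP5J -0.016. Averaging IUGR 2 and IUGR 3 gave the COX8C to COX8A ratio -0.018, ATP5G1 -0.037, NDUFAB1 -0.0099, UQCRFS1 -0.029 and COX5A -0.042.

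When each library was left out in turn, the ranges that crossed 0 among these genes, the ratios and the complexes were -0.11 to 0.21 for complex III relative to all tested loci, -0.18 to 0.43 for ATP5G1, -0.00061 to 0.61 for ATP5G3, -0.12 to 0.35 for NDUFAB1, -0.015 to 0.50 for SDHD, -0.12 to 0.34 for UQCRFS1, -0.19 to 0.30 for COX5A, -0.18 to 0.10 for the COX7A1 to COX7A2 ratio and -0.33 to 0.24 for the COX8C to COX8A ratio. The cause of these changes was not tested.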
